A study of Homo sapiens with 6 samples.

Results

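The genes described here are the ligands, receptors, SMAD proteins and regulators of the transforming growth factor beta (TGF-beta) and bone morphogenetic protein (BMP) pathways. They were taken as a list of 48 gene symbols, and all 48 had a row among the 26255 symbols of the expression table. RNA was sequenced from MDA-MB-231, a human triple-negative breast cancer line, with 3 libraries from cells with the control shRNA (shNT) and 3 from cells with an shRNA to GPR81 (shGPR81). GPR81 is a lactate receptor encoded by HCAR1. Both groups were made with lentivirus and kept under puromycin selection, so they share the vector and the drug. They differ in the hairpin the virus encodes and in the selected line of cells that carries it, which cannot be told apart. The labels do not say which of the GPR81 hairpins the sequenced cells carried, and they do not say whether the replicates were separate cultures, so the p-values below measure only the spread between these samples, which may be technical.

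TGF-beta family ligands are secreted dimers that bring together type II and type I receptor kinases. TGF-beta and activin receptors phosphorylate SMAD2 and SMAD3, BMP receptors phosphorylate SMAD1, SMAD5 and SMAD9, and both sets enter the nucleus with SMAD4 and switch on target genes, among them the inhibitory SMADs that damp the signal. In breast cancer cells TGF-beta is known for its part in motility, matrix production and bone metastasis. The comparison asked whether the ligand TGFB2 was lower in the libraries labelled shGPR81 and whether the known targets of the pathway were lower with it.

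Values are FPKM (fragments scaled to transcript length and library size). HCAR1 itself was at 0.968, 1.02 and 1.36 FPKM in shNT and at 0.978, 0.891 and 0.396 FPKM in the libraries labelled shGPR81. These values stand for 37, 40 and 52 reads against 40, 36 and 16. The groups overlapped, with a log2 fold change of -0.57 (SE 0.31) and an adjusted p of 0.38 (limma). The interval, -1.30 to 0.15, is too wide to exclude a fall past a fold of 1.5. These libraries thus cannot decide whether HCAR1 RNA was lower, and the second group is therefore named by its label throughout. The study itself reported lower GPR81 RNA and protein in its shGPR81 lines, by RT-qPCR and western blotting. Depth was estimated at between 11900000 and 12700000 reads per library from the whole-number steps in the FPKM. The library that stood furthest apart by GC content was shNT replicate 1. Its genes with the highest GC content (top quartile of all tested) sat at a median of -0.17 from the mean of all 6 libraries on the log2 scale. Those of the bottom quartile sat at 0.11. In shNT replicate 3 the medians lay the other way, at 0.10 for the top quartile and -0.08 for the bottom. Chromosome 20 also stood apart, where the 267 genes at 5 FPKM or more lay at a median of -0.40 on the log2 fold change scale, against -0.03 to 0.10 on the other chromosomes, so a value centred on the gene's chromosome is given for genes there. The markers of basal mesenchymal breast cancer cells, VIM among them, were all detected (8 of 8) and summed to 4633 to 5423 FPKM in shNT and 5464 to 6033 in the libraries labelled shGPR81. Of 8 luminal markers, ESR1, PGR and CDH1 were at 0 in every library, and the sum fell outside the shNT range, from 18.3 to 22.7 FPKM in shNT to 9.58 to 9.77, with TFF1 and TFF3 called lower. Fibroblast markers (2 of 6 at 0) summed to 18.01 to 21.2 and 15.8 to 17.6 FPKM, nearly all of it THY1, leukocyte markers (2 of 5 at 0) to 2.85 to 5.30 and 2.25 to 2.63, and endothelial markers (1 of 5 at 0) to 0.818 to 1.05 and 0.798 to 1.23. The part of these markers in the results below was not tested.

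The upstream sequences of the 3 pathway genes that passed the test described below, TGFB2, INHBB and ID4, are shown because the hairpin's target is a receptor that lowers cyclic AMP and the pathway itself acts through SMAD binding sites. Each run is the 250 bases before the RefSeq transcription start on GRCh38.p14, plus strand, 5′ to 3′. The TGFB2 stretch is chr1:218345086-218345335, that of INHBB chr2:120345886-120346135 and that of ID4 chr6:19837120-19837369. Capitals mark CGTCA, the short core of the cyclic AMP response element, and CAGAC, the SMAD box.
TGFB2: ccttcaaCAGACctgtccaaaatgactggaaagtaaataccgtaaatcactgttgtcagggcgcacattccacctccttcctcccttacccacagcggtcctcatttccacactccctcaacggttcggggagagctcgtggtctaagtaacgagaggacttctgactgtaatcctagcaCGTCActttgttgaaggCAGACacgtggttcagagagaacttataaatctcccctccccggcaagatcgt
INHBB: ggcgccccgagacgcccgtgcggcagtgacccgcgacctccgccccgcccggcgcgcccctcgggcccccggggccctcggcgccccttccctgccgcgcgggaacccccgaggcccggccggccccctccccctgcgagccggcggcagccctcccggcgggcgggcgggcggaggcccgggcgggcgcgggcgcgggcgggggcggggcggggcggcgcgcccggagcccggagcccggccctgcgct
ID4: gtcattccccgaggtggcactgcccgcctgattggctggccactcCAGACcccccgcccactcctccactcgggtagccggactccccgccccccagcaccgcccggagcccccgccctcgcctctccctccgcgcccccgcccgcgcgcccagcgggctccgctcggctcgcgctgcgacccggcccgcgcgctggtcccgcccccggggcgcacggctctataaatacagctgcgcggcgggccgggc
TGFB2 carried 1 such core, which began 70 bases before the start, and 2 SMAD boxes, which began 243 and 53 bases before it. ID4 carried 1 SMAD box at 205 bases before the start, and INHBB carried none of the letters searched. Both strands were searched, in windows of 300 bases that ran to 50 bases past the start, for these motifs and for the full response element TGACGTCA, which contains that core, and the palindromic SMAD element GTCTAGAC. RefSeq windows were found for 43 of the 48 genes, 75 windows in all. The core was in 20% of them and in 24.6% of all 35116 windows, and the SMAD box was in 49.3% and 45.3%. The full element was in 2 of the 75 windows, those of LTBP1 and SKIL (2.7%, against 1.8% of all windows), and the palindrome was in 1, that of SMAD6 (1.3%, against 0.2%). A match is a string of letters and does not show a bound site.

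Of the 48 genes, GREM1 was listed at 0 in every library and the other 47 passed the filter on low values (0.1 FPKM or more in at least 3 libraries). A call required a fold change over 1.5 together with an adjusted p (Benjamini-Hochberg, all 14349 tested genes) under 0.05, both from limma on log2(FPKM + 0.1), a scale that understates changes of low genes. TGFB2, INHBB and ID4 were called lower and none was called higher. These are 3 of 47 genes, or 6.4%, beside 1.59% of all tested genes called lower, and 0 of 47 beside 0.955% called higher. By the adjusted p alone, 5 genes were lower (10.6%, beside 3.07% of all tested genes) and 2 were higher (4.3%, beside 2.06%). The groups did not overlap and the libraries labelled shGPR81 were lower in 10 genes (21.3%, beside 12.7%), and they were higher without overlap in 5 genes (10.6%, beside 12.9%). In the other 32 genes the groups overlapped. The estimates were below 0 in 30 genes and above 0 in 17, and their median was -0.06, against 0.01 over all tested genes. With 3 libraries against 3, the exact two-sided permutation test of a single gene cannot go below p = 0.1, and all 15 genes without overlap were at that value. These are levels in bulk RNA, in which fewer cells of a type and less RNA per cell cannot be told apart.

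**Figure D1:**
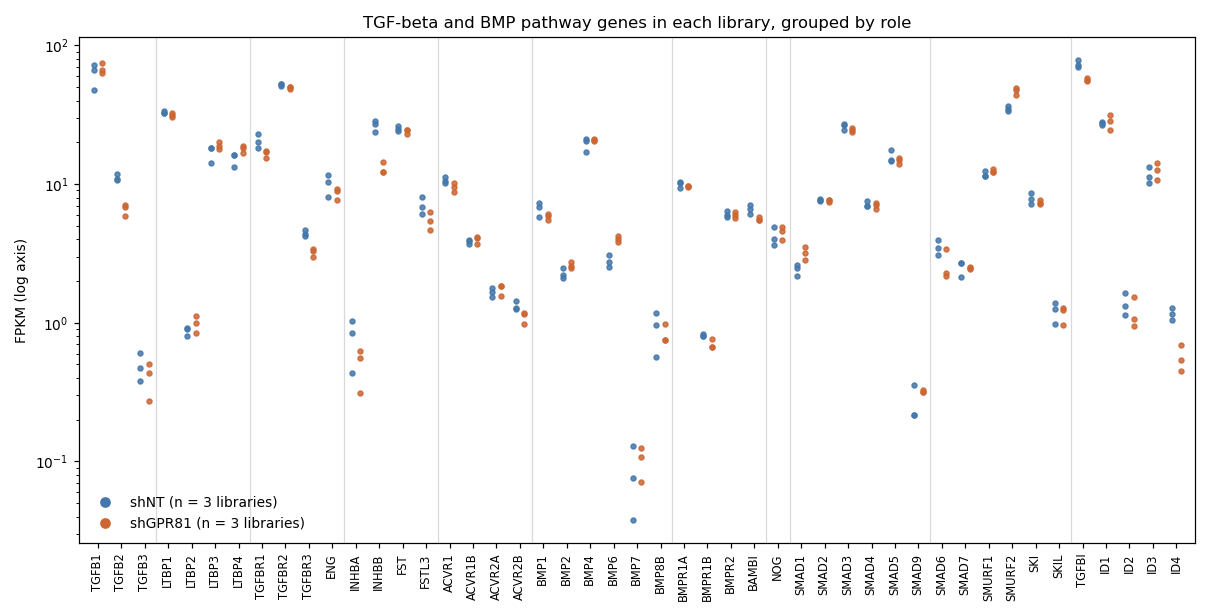
FPKM of the 47 detected TGF-beta and BMP pathway genes in each of the 3 shNT and 3 shGPR81 libraries, on a log axis, with vertical lines between roles. TGFBI and TGFB1 sit highest and BMP7 lowest, and for most genes the points of both groups lie at the same height.

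Since FPKM are per length, levels can be compared between genes. Averaged over the 6 libraries, TGFBI (65.1 FPKM) and TGFB1 (65.0) were highest, with nearly the same average. TGFBI had the higher mean in shNT (73.6 against 62.0 FPKM) and TGFB1 in the libraries labelled shGPR81 (68.1 against 56.6 FPKM). They were followed by TGFBR2 (50.7), SMURF2 (40.9), LTBP1 (32.2), ID1 (27.8) and SMAD3 (25.4). At the lower end were INHBA (0.634), TGFB3 (0.446), SMAD9 (0.291) and BMP7 (0.0912). The cells thus had RNA for a TGF-beta ligand, for both of its receptor kinases and for its SMADs in both groups.

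TGFB2, one of the TGF-beta ligands, was the ligand of this subfamily that fell. Its level was 11.7, 10.7 and 10.9 FPKM in shNT and 5.86, 7.01 and 6.79 FPKM in the libraries labelled shGPR81. Every library of the second group lay below every shNT library. The means were 11.1 ± 0.546 and 6.55 ± 0.612 FPKM (SD, n = 3), a 1.69-fold lower level with a log2 fold change of -0.76 (SE 0.09, 95% interval -0.96 to -0.55) and an adjusted p of 0.0039 (limma). In the fits that left out 1 library each, the adjusted p stayed between 0.00673 and 0.0255. TGFB2 is among the genes the study itself picked out of these libraries, so its direction here is no independent evidence.

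TGFB1, the ligand with the highest level, was at 47.7, 65.9 and 72.4 FPKM in shNT and at 63.1, 66.3 and 74.9 FPKM in the libraries labelled shGPR81. The groups overlapped, and the lowest value was that of shNT replicate 1. The log2 fold change was 0.15 (95% interval -0.20 to 0.50, adjusted p = 0.658 from limma). It was -0.02 without shNT replicate 1, and 0.14 after a correction for GC content (the longest TGFB1 transcript has 63.6% GC). TGFB3 was low, at 0.379, 0.609 and 0.468 FPKM against 0.437, 0.506 and 0.274, which stand for 17, 28 and 21 reads against 21, 24 and 13, and its interval, -0.84 to 0.39, is too wide at this depth to decide on a fold of 1.5 in either direction.

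Summed over the 3 TGF-beta ligands, the level was 59.8, 77.2 and 83.7 FPKM in shNT and 69.4, 73.8 and 82.0 FPKM in the libraries labelled shGPR81. The groups overlapped fully, with a difference of 1.47 FPKM between the means (exact two-sided permutation test, p = 1.0). TGFB2 made up 19.6%, 13.9% and 13.03% of that sum in shNT and 8.44%, 9.50% and 8.28% in the libraries labelled shGPR81. Its share was lower in every one of the latter (15.5 ± 3.60% against 8.74 ± 0.661%, SD, n = 3; exact two-sided permutation test, p = 0.1, the smallest possible). The share contains the lower TGFB2 level itself, so it is no separate evidence of a fall. It was highest in shNT replicate 1, the library with the lowest sum. TGFB2 was thus a minor part of the summed ligand RNA in both groups, and TGFB1 made up most of it. The shNT sum had an SD of 12.4 FPKM, with replicate 1 lowest. That spread was wider than the fall in TGFB2 (means of 11.1 and 6.55 FPKM), so the sum could not show whether this fall changed it.

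**Figure D2:**
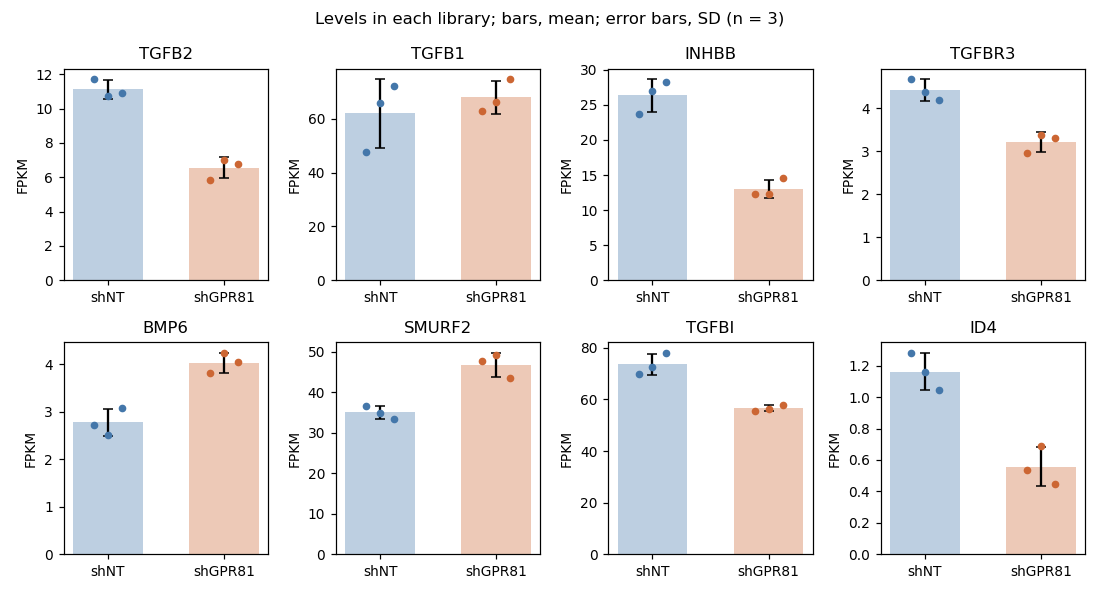
FPKM of TGFB2, TGFB1, INHBB, TGFBR3, BMP6, SMURF2, TGFBI and ID4 in each library (points), with the mean (bars, from 0) and SD (error bars) of the 3 shNT and the 3 shGPR81 libraries. The groups are apart in every panel but that of TGFB1, where the points overlap.

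The latent TGF-beta binding proteins hold TGF-beta in the matrix in an inactive form. None of the 4 passed the adjusted p. LTBP1 was at 32.9 ± 0.783 FPKM in shNT and 31.5 ± 0.839 FPKM in the libraries labelled shGPR81 (SD, n = 3), and its interval on the log2 scale was narrow, from -0.18 to 0.05. LTBP3 had an estimate of 0.18 (-0.07 to 0.42) and the low LTBP2 one of 0.15 (-0.22 to 0.52). LTBP4 was at 13.3, 16.2 and 16.1 FPKM against 18.2, 16.9 and 18.8. Its groups did not overlap, but the adjusted p was 0.192 (limma).

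The receptor side was described by 4 genes, all with estimates below 0. TGFBR3, the coreceptor betaglycan that presents TGFB2 to the signalling receptors, was at 4.69, 4.39 and 4.19 FPKM in shNT and at 2.96, 3.38 and 3.32 FPKM in the libraries labelled shGPR81. The groups were apart, and the log2 fold change of -0.45 (SE 0.10) passed the adjusted p (0.0427, limma) with a fold of 1.36, under the threshold of 1.5. In each fit without 1 library the adjusted p was between 0.0686 and 0.16, so this result needs all 6 libraries. TGFBR1, the type I receptor kinase, was at 22.9, 20.2 and 18.1 FPKM against 17.2, 17.1 and 15.3, with a log2 fold change of -0.30 (-0.52 to -0.07) and an adjusted p of 0.14 (limma). TGFBR2, the type II receptor kinase, was at 52.4, 52.5 and 50.8 FPKM against 50.1, 50.3 and 48.3. Its groups did not overlap either, but the difference was small, with a log2 fold change of -0.07 and an interval of -0.17 to 0.04. ENG, a coreceptor known from endothelium, overlapped between the groups (-0.20, interval -0.54 to 0.13).

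Activins are dimers of inhibin beta chains, and follistatins bind and neutralise them. INHBB, which encodes the beta B chain, was called lower. It was at 23.7, 27.0 and 28.3 FPKM in shNT and at 12.2, 12.2 and 14.5 FPKM in the libraries labelled shGPR81. Each shNT library was above each library of the other group. The means of 26.3 ± 2.4 and 13 ± 1.31 FPKM (SD, n = 3) give a 2.02-fold lower level, with a log2 fold change of -1.01 (SE 0.10, 95% interval -1.24 to -0.79) and an adjusted p of 0.00193 (limma), and 0.00152 to 0.0175 with 1 library left out.

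INHBA, which encodes the beta A chain, was low and scattered, at 0.847, 0.431 and 1.03 FPKM against 0.310, 0.627 and 0.557 (-0.51, interval -1.32 to 0.29). The sum of both beta chains was 24.5, 27.5 and 29.3 FPKM in shNT and 12.6, 12.9 and 15.1 FPKM in the libraries labelled shGPR81. The summed RNA was lower in every library of the second group (exact two-sided permutation test, p = 0.1). INHBB made up nearly all of this sum (shNT means of 26.3 and 27.1 FPKM), so the sum repeats the fall in INHBB and is no separate result. FST, the main follistatin here, was at 25.1 ± 0.976 and 24.0 ± 0.830 FPKM (SD, n = 3; log2 interval -0.19 to 0.07). FSTL3, a follistatin relative, was at 6.10, 6.88 and 8.02 FPKM against 5.38, 4.64 and 6.33, groups that overlapped (adjusted p = 0.221, limma).

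None of the 4 activin receptors passed the adjusted p, and none of their 95% intervals reached a fold of 1.5. The estimates were -0.16 for ACVR1, a type I receptor that BMPs also use, 0.05 for ACVR1B, the activin type I receptor, and 0.06 and -0.24 for the type II receptors ACVR2A and ACVR2B. ACVR2B was the one whose groups did not overlap, at 1.43, 1.27 and 1.26 FPKM against 1.16, 1.18 and 0.982.

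None of the BMP ligands was called. BMP6 was at 2.73, 2.51 and 3.07 FPKM in shNT and at 3.81, 4.24 and 4.04 FPKM in the libraries labelled shGPR81, which stand for 109, 103 and 123 reads against 163, 179 and 171. The second group was above the first in every library. The log2 fold change was 0.53 (SE 0.11, 95% interval 0.28 to 0.78) with an adjusted p of 0.0347 (limma) and a fold of 1.44, just under the threshold. It passed both thresholds without shNT replicate 3 (0.60, adjusted p = 0.0374), and the adjusted p was up to 0.141 without another library.

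BMP4, the BMP ligand with the highest level, was at 17.1, 20.4 and 21.2 FPKM against 20.8, 21.0 and 20.6, and its interval of -0.11 to 0.29 excluded a fold of 1.5 in either direction. BMP2 lies on chromosome 20. It was at 2.22, 2.09 and 2.46 FPKM against 2.76, 2.49 and 2.56, without overlap, and its log2 fold change of 0.20 (95% interval -0.06 to 0.46) had an adjusted p of 0.385 (limma). Set against the other genes of its chromosome its log2 fold change was 0.60 (adjusted p = 0.0291, limma), which passed both thresholds.

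BMP7, also on chromosome 20, stood for 4, 7 and 2 reads against 4, 6 and 7, too few to show a difference. BMP8B, whose sequence is close to that of BMP8A and whose reads may be shared with it, overlapped between the groups (-0.06, interval -0.67 to 0.54). BMP1, which is a procollagen protease and not a ligand, was at 6.65 ± 0.820 and 5.82 ± 0.272 FPKM (SD, n = 3; log2 interval -0.43 to 0.06).

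Of the BMP receptors, BMPR1A and BMPR2 had estimates close to 0, at -0.05 (-0.21 to 0.10) and -0.02 (-0.20 to 0.17). BMPR1B was at 0.796, 0.804 and 0.826 FPKM against 0.670, 0.674 and 0.766. These values did not overlap, yet the adjusted p was 0.6 (limma). BAMBI, a pseudoreceptor without a kinase domain that blocks signalling and is itself a target of the pathway, was at 7.03, 6.58 and 6.07 FPKM against 5.76, 5.52 and 5.51, with a log2 fold change of -0.22 and an adjusted p of 0.192 (limma). Of the BMP antagonists, GREM1 was listed at 0 and NOG, which encodes noggin, overlapped between the groups (0.10, interval -0.21 to 0.41).

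Of the 6 SMADs that carry the signal, none passed the adjusted p, and 4 had narrow intervals close to 0. SMAD2, SMAD3, SMAD4 and SMAD5 had estimates between -0.10 and -0.02, and the widest of their 95% intervals ran from -0.29 to 0.10. SMAD3 was at 26.6, 27.3 and 24.7 FPKM in shNT and at 25.2, 24.6 and 23.9 FPKM in the libraries labelled shGPR81. SMAD4, the common partner, was at 6.96, 6.93 and 7.499 FPKM against 7.07, 6.56 and 7.31.

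SMAD1, of the BMP arm, was at 2.50, 2.62 and 2.17 FPKM in shNT and at 3.17, 2.85 and 3.52 FPKM in the libraries labelled shGPR81. The groups did not overlap, and the log2 fold change was 0.37 (95% interval 0.09 to 0.66), but the adjusted p was 0.147 (limma). SMAD9 was low, at 0.262 ± 0.0805 and 0.321 ± 0.00501 FPKM (SD, n = 3), with an interval from -0.32 to 0.81.

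The list holds 6 genes that act against the signal inside the cell. SMURF2, a ubiquitin ligase that marks receptors and SMADs for degradation, was at 36.6, 34.9 and 33.5 FPKM in shNT and at 47.7, 49.3 and 43.5 FPKM in the libraries labelled shGPR81. The groups were well apart, with a log2 fold change of 0.42 (SE 0.06, 95% interval 0.27 to 0.57), an adjusted p of 0.012 (limma) and a fold of 1.34, under the threshold. With 1 library left out the adjusted p ran from 0.00864 to 0.0703. Its relative SMURF1 was at 11.8 ± 0.602 and 12.4 ± 0.344 FPKM (SD, n = 3; log2 interval -0.09 to 0.22).

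SMAD7 and SMAD6 are the inhibitory SMADs and are induced by the signal that they inhibit. SMAD7 was at 2.12, 2.71 and 2.71 FPKM in shNT and at 2.47, 2.43 and 2.53 FPKM in the libraries labelled shGPR81. The second group lay inside the range of the first, with a log2 fold change of -0.01 (-0.30 to 0.28). SMAD6 was at 3.09, 3.44 and 3.93 FPKM against 2.15, 2.30 and 3.41, groups that overlapped in 1 library each, with a log2 fold change of -0.42 (-0.85 to 0.01) and an adjusted p of 0.268 (limma). The corepressors SKI and SKIL had estimates of -0.08 and -0.05, and SKIL, an early TGF-beta target, was at 1.38, 1.26 and 0.972 FPKM against 1.23, 1.27 and 0.960.

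**Figure D3:**
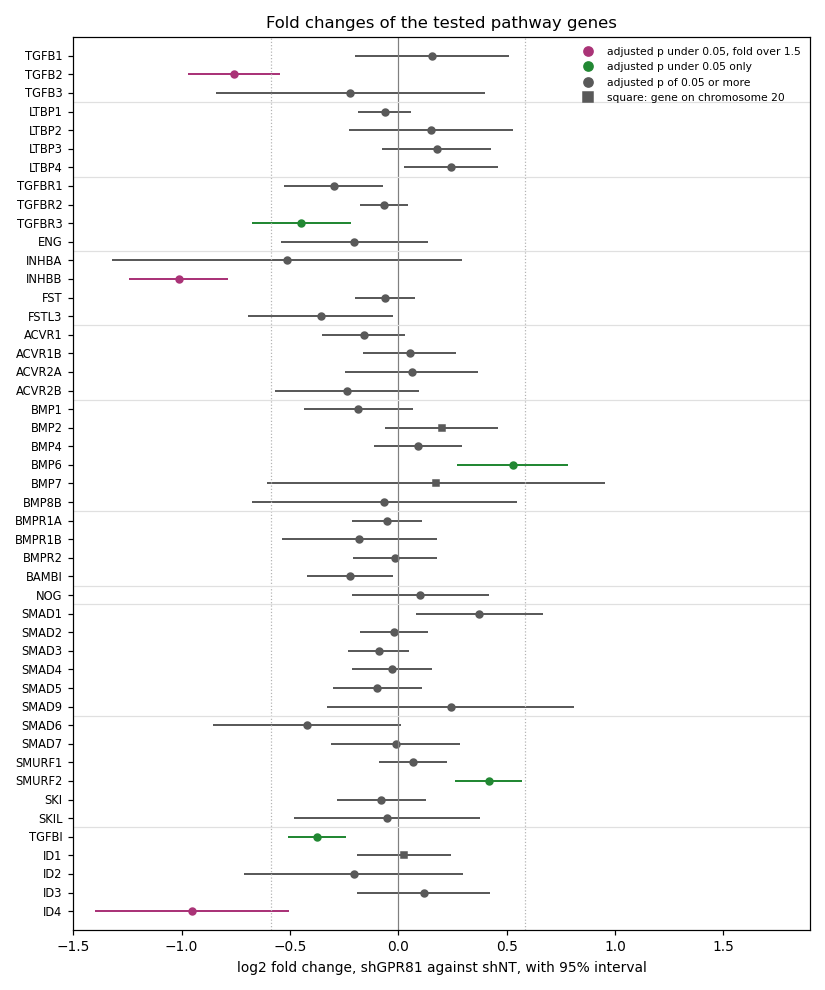
Log2 fold changes of the 47 tested genes, shGPR81 against shNT, with 95% intervals from limma (n = 3 libraries per group). Horizontal lines separate the roles, dotted lines mark a fold of 1.5 in either direction, and squares mark genes on chromosome 20. INHBB, ID4 and TGFB2 lie left of the dotted line, while most intervals cross 0.

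The last role held 5 genes listed as targets, beside the inhibitors above that the pathway also induces. TGFBI, a matrix protein named for its induction by TGF-beta, was at 70.1, 72.5 and 78.2 FPKM in shNT and at 55.7, 56.4 and 57.8 FPKM in the libraries labelled shGPR81. The groups did not overlap, and the means of 73.6 ± 4.17 and 56.6 ± 1.08 FPKM (SD, n = 3) differed by a log2 fold change of -0.38 (SE 0.06, 95% interval -0.50 to -0.25). The adjusted p was 0.00956 (limma) with a fold of 1.3, under the threshold, and 0.00485 to 0.0621 with 1 library left out.

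The ID genes encode inhibitors of basic helix-loop-helix factors and are among the most direct targets of BMP signalling. ID4 was at 1.28, 1.16 and 1.05 FPKM in shNT and at 0.535, 0.691 and 0.448 FPKM in the libraries labelled shGPR81, which stand for 65, 60 and 53 reads against 29, 37 and 24. The groups were apart, with a log2 fold change of -0.95 (SE 0.19, 95% interval -1.40 to -0.51) and an adjusted p of 0.0324 (limma). This call was weak. The adjusted p was 0.121 without shNT replicate 2 or without shGPR81 replicate 1, 0.102 without shGPR81 replicate 3, 0.0648 without shNT replicate 1, 0.0619 without shNT replicate 3 and 0.0501 with the replicate number as a block.

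The other 3 ID genes overlapped between the groups. ID1, the most abundant, was at 26.7, 27.9 and 27.7 FPKM in shNT and at 28.3, 24.5 and 31.5 FPKM in the libraries labelled shGPR81 (0.03, interval -0.18 to 0.24). It lies on chromosome 20, and set against that chromosome its log2 fold change was 0.43 (adjusted p = 0.0414, limma). ID3 was at 10.2, 13.2 and 11.2 FPKM against 12.6, 10.7 and 14.3 (0.12, interval -0.19 to 0.42), and ID2 at 1.13, 1.65 and 1.31 FPKM against 1.52, 0.949 and 1.07 (-0.21, interval -0.70 to 0.29). Of the 4 ID genes, the one that was called thus had the lowest level.

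The output of the TGF-beta arm was read from a list of 35 genes known to be induced by it, 4 of which (TGFBI, SMAD7, SKIL and FSTL3) are also among the 48. COL1A2 and CDKN2B were listed at 0 and ELN was below the filter, which left 32 tested genes. TGM2 and NEDD9 were called lower (6.2% of the tested list, beside 1.59% of all tested genes), and ACTA2 and IGFBP3 were called higher (6.2%, beside 0.955%). By the adjusted p alone, 8 were lower (25%, beside 3.07% of all tested genes) and 2 were higher (6.2%, beside 2.06%). The groups did not overlap and the libraries labelled shGPR81 were lower in 14 genes (43.8%, beside 12.7%), and they were higher without overlap in 4 (12.5%, beside 12.9%). The median log2 fold change of the list was -0.09, against 0.01 over all tested genes, and it was -0.07 without the 3 genes on chromosome 20. SNAI1 and NEDD9 are genes the study itself picked from these libraries.

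The 2 genes called lower differed in how firm they were. TGM2, the matrix cross-linking enzyme transglutaminase 2, was at 58.8, 71.8 and 75.9 FPKM in shNT and at 38.1, 41.7 and 43.4 FPKM in the libraries labelled shGPR81 (log2 fold change -0.74, SE 0.10, adjusted p = 0.00751, limma). It lies on chromosome 20, and set against that chromosome the change was -0.33 and the adjusted p 0.0882. NEDD9, a focal adhesion scaffold, was at 1.62, 1.80 and 1.87 FPKM against 1.18, 1.04 and 1.12 (log2 fold change -0.62, SE 0.13, adjusted p = 0.0369, limma). The adjusted p of NEDD9 was 0.101 to 0.137 without any 1 of shNT replicates 2 and 3 or the 3 libraries labelled shGPR81, 0.0771 with the replicate block and 0.0645 without the filter.

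A further 6 genes were lower by the adjusted p alone, with folds under 1.5. THBS1, which activates latent TGF-beta, was at 28.7, 30.9 and 29.5 FPKM against 19.7, 20.3 and 20.6 (log2 fold change -0.56, adjusted p = 0.00208). FN1, which encodes fibronectin, was at 59.9, 62.4 and 61.1 FPKM against 49.0, 51.2 and 50.8 (-0.28, adjusted p = 0.0148), and COL4A1, a basement membrane collagen, had a log2 fold change of -0.40 (adjusted p = 0.0126). TGFBI was given above. RHOB, a small GTPase, was at 55.7, 67.4 and 65.4 FPKM against 42.4, 41.2 and 42.5, and its fold of 1.49 was just under the threshold (-0.57, adjusted p = 0.00663). PMEPA1, a feedback inhibitor, had a log2 fold change of -0.53 (adjusted p = 0.0126), but it lies on chromosome 20 and set against it the change was -0.13 (adjusted p = 0.446). SNAI1, the third gene on that chromosome, was at 3.48, 4.72 and 5.51 FPKM against 2.12, 2.84 and 2.83 with an adjusted p of 0.0646 (limma), and -0.38 in place of -0.78 after centring.

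The genes that were higher are targets of the same pathway. ACTA2, smooth muscle actin, was at 2.37, 1.84 and 1.64 FPKM in shNT and at 5.05, 3.97 and 3.73 FPKM in the libraries labelled shGPR81 (log2 fold change 1.09, SE 0.17, adjusted p = 0.0124, limma). Its adjusted p was 0.0592 and 0.0541 when shGPR81 replicate 1 or 2 was left out and 0.0654 when shNT replicate 2 was, and part of its sequence is shared with the other actin genes. IGFBP3, a binding protein of insulin-like growth factors, was at 10.8, 9.70 and 10.4 FPKM against 16.2, 17.3 and 15.9 (0.67, SE 0.07, adjusted p = 0.0026) and was called under each of 18 alternative settings.

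The 3 genes of the list with the highest levels did not pass the adjusted p. CCN2, a much used readout of TGF-beta, was at 219.7, 226.7 and 247.5 FPKM against 255.7, 260.7 and 276.8 (log2 fold change 0.19, adjusted p = 0.132, limma). IL11, a cytokine that TGF-beta induces in bone-seeking cells, was at 83.3, 100.2 and 90.1 FPKM against 80.6, 73.9 and 77.8 (-0.23, interval -0.41 to -0.06, adjusted p = 0.138), and VEGFA was at 85.8 ± 2.45 and 80.2 ± 3.92 FPKM (SD, n = 3). The groups of these 3 genes did not overlap, with CCN2 higher and IL11 and VEGFA lower in the libraries labelled shGPR81. The study itself reported lower IL11 RNA in its shGPR81 cells, by RT-qPCR. Lower TGFB2 thus came with TGM2 and NEDD9 called lower and with ACTA2 and IGFBP3 called higher. Of 18 alternative settings, TGM2 lost its call in 1 (centring on its chromosome), NEDD9 in 9, ACTA2 in 3 and IGFBP3 in 0. By the wider measures more genes of the list were lower than higher. These were 8 against 2 by the adjusted p alone (25% and 6.2%, beside 3.07% and 2.06% of all tested genes). Without overlap they were 14 against 4 (43.8% and 12.5%, beside 12.7% and 12.9%). With the genes on chromosome 20 left out, they were 6 against 2 by the adjusted p alone (20.7% and 6.9%). The counts without overlap were then 11 against 4 (37.9% and 13.8%).

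**Figure D4:**
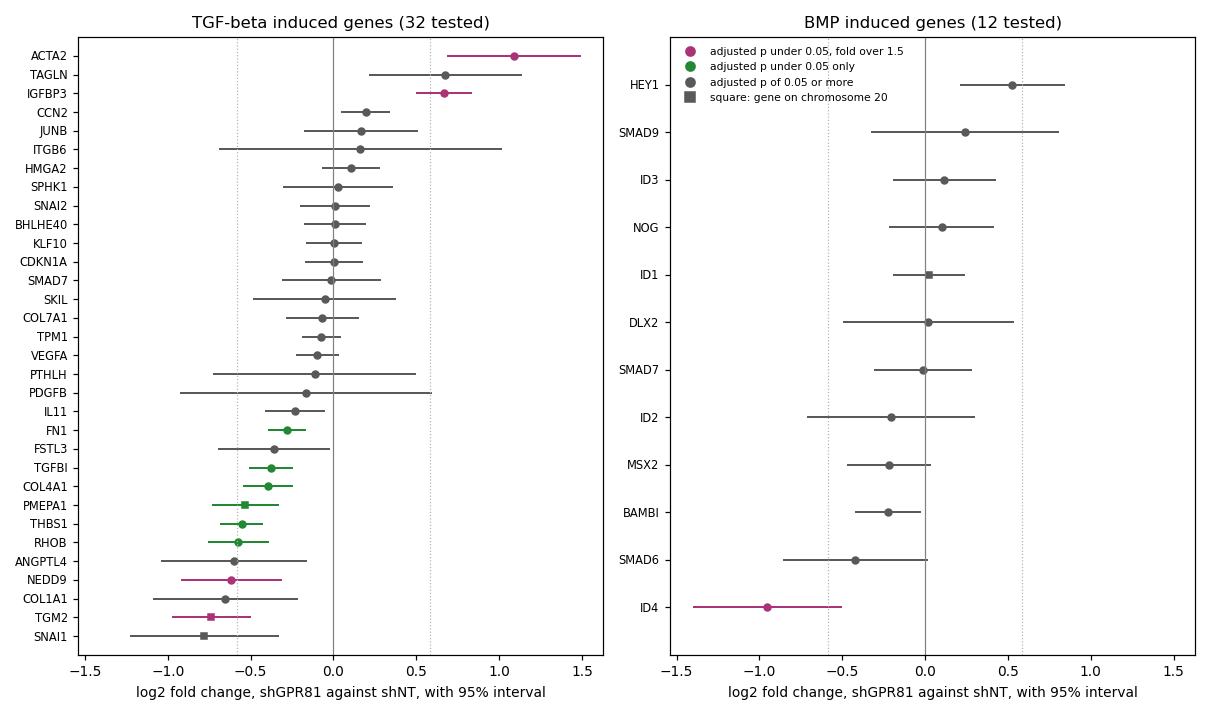
Log2 fold changes, shGPR81 against shNT, of 32 genes induced by TGF-beta (left) and 12 induced by BMP (right), sorted by value, with 95% intervals from limma (n = 3 libraries per group). Dotted lines mark a fold of 1.5 and squares mark genes on chromosome 20. On the left, genes past the adjusted p lie at both ends of the list; on the right, ID4 is the one that passed.

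The output of the BMP arm was read from 16 genes, of which 12 were tested and 9 of these are also among the 48. MSX1 and DLX5 were listed at 0, and ATOH8 and UNC5B were below the filter. ID4 was called lower (8.3% of the tested list, beside 1.59% of all tested genes) and 0 were called higher (beside 0.955%). The estimates were split evenly, with 6 below and 6 above 0 and a median of 0.003. Of the genes outside the 48, HEY1, a transcriptional repressor, was at 1.60, 1.83 and 1.39 FPKM against 2.40, 2.20 and 2.43, without overlap (log2 fold change 0.52, adjusted p = 0.0725, limma). MSX2 and DLX2, both homeobox genes, overlapped between the groups, with estimates of -0.22 and 0.02.

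The remaining genes of the family were taken from 5 further lists. Of 22 other ligands, 21 were in the table, 8 of them at 0, and 6 passed the filter. GDF15 and LEFTY1 were called lower (33.3% of the tested list, beside 1.59% of all tested genes) and 0 were called higher (beside 0.955%). GDF15, a distant member of the family that signals through a receptor of its own, was at 23.4, 34.2 and 34.2 FPKM in shNT and at 9.55, 7.19 and 8.77 FPKM in the libraries labelled shGPR81. It fell 3.54-fold, with a log2 fold change of -1.82 (SE 0.17) and an adjusted p of 0.00171 (limma), and was called under each of 18 alternative settings. LEFTY1, an antagonist of nodal, was at 3.22, 4.94 and 4.03 FPKM against 1.77, 1.26 and 1.79 (-1.28, adjusted p = 0.0111, and 0.0522 without shNT replicate 2), and its sequence is close to that of LEFTY2, so its reads are uncertain. AMH, the anti-Mullerian hormone, was at 1.04, 1.21 and 1.12 FPKM against 2.09, 1.51 and 2.04, but its adjusted p was 0.0571, and GDF11, a relative of myostatin, overlapped between the groups.

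Of 13 other secreted antagonists, 5 passed the filter. CHRDL1 was called lower (20% of the tested list, beside 1.59% of all tested genes). CHRDL1, a chordin-like BMP antagonist on the X chromosome, was at 17.8, 16.0 and 16.2 FPKM in shNT and at 6.94, 7.10 and 7.02 FPKM in the libraries labelled shGPR81. The spread within the groups was small beside the difference, with a log2 fold change of -1.24 (SE 0.07), an adjusted p of 0.000342 (limma) and a call under each of 18 alternative settings. NBL1, TWSG1 and FSTL1, the antagonists with the highest levels, had estimates of 0.02, -0.09 and 0.09, none past the adjusted p. Of 7 other receptors and coreceptors, 2 passed the filter. RGMB, a BMP coreceptor, was at 17.9, 17.9 and 18.03 FPKM against 23.9, 24.4 and 23.3 (0.41, adjusted p = 0.00472), a fold of 1.33, and ACVR1C reached the filter through the libraries labelled shGPR81 alone.

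Of 13 genes that activate or hold latent TGF-beta, 9 passed the filter, MMP9 through the shNT libraries alone. MMP14 was called higher (11.1% of the tested list, beside 0.955% of all tested genes). MMP14, a membrane-bound matrix metalloprotease, was at 38.7, 44.1 and 43.9 FPKM in shNT and at 62.1, 62.8 and 65.2 FPKM in the libraries labelled shGPR81. The groups were apart, with a log2 fold change of 0.59 (SE 0.06) and an adjusted p of 0.00303 (limma). Its fold lay at the threshold, with log2 fold changes of 0.52 to 0.62 over 18 alternative settings, and the call was lost in 6 of them, among them those without shNT replicate 1 (0.52) and without shGPR81 replicate 3 (0.57). THBS1, given above, was the one gene of this list that was lower by the adjusted p. ITGAV, the alpha chain of the integrins that release TGF-beta, overlapped between the groups (-0.09, interval -0.40 to 0.22).

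Of 21 intracellular regulators, 20 passed the filter, 0 were called, and by the adjusted p alone 2 were lower (10%, beside 3.07% of all tested genes) and 1 was higher (5%, beside 2.06%). The lower ones, FKBP1A and PMEPA1, both lie on chromosome 20. FKBP1A, an immunophilin that binds type I receptors, was at 499.2, 559.5 and 565.8 FPKM against 395.2, 384.7 and 414.2 (-0.44, adjusted p = 0.00954, limma), and at -0.04 once centred on its chromosome. TGIF1, a SMAD corepressor, was at 13.6, 15.6 and 14.2 FPKM against 18.6, 17.8 and 18.2 (0.33, adjusted p = 0.0351). STRAP and STUB1, the most abundant of the others, had estimates of -0.10 and 0.14 that did not pass.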

How the data were processed

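RNA from 6 MDA-MB-231 libraries (3 shNT, 3 shGPR81) was compared. Per the labels, mRNA libraries from a stranded TruSeq kit were sequenced single-end on an Illumina HiSeq. The submitters' processing notes name TopHat2 2.0.13, Bowtie2 2.2.3, SAMtools 0.1.19 and Cuffnorm 2.2.1, and a mouse genome build. The methods of the study name the human GRCh37, and the symbols are human. The deposited table holds the authors' FPKM, 1 value per symbol and library. MIR6723 makes up 28.1% to 36.2% of a column sum. The annotation and the strand setting are not given in the sources used here, so a gene and an overlapping antisense gene may not be told apart.

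Groups came from the hairpin label. Genes that reached 0.1 FPKM in 3 or more of the 6 libraries (14349) were fitted without a block on log2(FPKM + 0.1), using limma 3.58.1 (lmFit, then eBayes with a variance trend; R 4.3.3), and p-values were adjusted by Benjamini-Hochberg. The fit was tested on simulated data. Calls needed a fold change over 1.5 and an adjusted p under 0.05. For single values an exact permutation test, two-sided, was added. Reads were taken from whole-number steps in the FPKM, looked for up to 600 reads, which gave whole reads for 5645 of 15931 genes. Of these, 4218 had a plausible step, and read numbers are given for such genes only. They are a minority, so no count test was run. Chromosomes and GC content are those of GENCODE on GRCh37. Of 26255 rows, 22422 were matched by symbol and 1358 by an older symbol or synonym. This gave a GC content for 23780 rows and a single locus, and so a chromosome, for 23468. A centred value subtracts the chromosome's median. Upstream sequences are from RefSeq on GRCh38.p14.

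The 48 genes and all lists were chosen with earlier results of these data known. One gene of the list induced by TGF-beta is not reported here and was left out of the counts and median of that list. The text names all 48, and of each other list the called genes and the 3 with the highest mean level. Genes that passed the adjusted p alone, SNAI1, MMP9, AMH, HEY1, MSX2, DLX2, ACVR1C, TFF1 and TFF3 were named after their values were seen. Alternatives were other pseudocounts, filters and scalings, centring on chromosomes, no variance trend, a replicate block, leaving out each library and, chosen after seeing the data, a GC correction with and without the block.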

Additional observations from a re-analysis of the deposited data

How the results depend on the processing

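TGFB2 was called lower under every alternative run, with log2 fold changes from -0.81 to -0.68. Of 867 other values of the 48 genes under an alternative, 853 kept their side of the threshold, 8 lost a call, all of them ID4, and 6 gained one. Among the 853 were 16 uncalled estimates, of 9 genes, that changed sign. By the adjusted p alone, 5 of the 48 genes were lower and 2 higher, and 8 of the genes induced by TGF-beta were lower. Centring on chromosomes called 1 of the 48 higher (BMP2), and so did leaving out shNT replicate 3 (BMP6), so that leaving out 1 library gave 0 to 1. Of the genes induced by TGF-beta, 1 was lower with a pseudocount of 1 and without the filter, 4 with equal sums without MIR6723, and 1 to 4 with 1 library left out (4 without shNT replicate 1), and 1 to 2 were then higher. Of the genes induced by BMP, 0 were lower with a pseudocount of 1, without the filter and with the replicate block, and 0 to 1 with 1 library left out. The cause of these changes was not tested. Libraries with the same replicate number had deviations from their group means that correlated at 0.12, 0.0223 and 0.00577 over genes. Libraries with different numbers were not compared in this way, so these values cannot decide whether the replicate numbers pair the libraries. With the number as a block, 2 of the 48 genes were lower, TGFB2 and INHBB, and among the genes induced by TGF-beta NEDD9 was lost (adjusted p = 0.0771, limma) and SNAI1 gained (adjusted p = 0.0182, limma). Few reads limit what TGFB3 and BMP7 can show.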
